A study of Rattus norvegicus with 18 samples.

Results

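The comparison described here sets medullary thyroid carcinomas of heterozygous MENX rats at 18 months of age against the same kind of tumour at 9 months. MENX rats carry an inherited mutation of Cdkn1b, the gene of the cell cycle inhibitor p27Kip1, and the question the comparison addresses is how the tumours of heterozygous animals differ between an earlier and a later age. The members are the 12 arrays, of 18 in the series, whose titles name the heterozygous genotype, 6 at each age. All 12 animals were untreated rats of the Sprague–Dawley white eye/Wistar–Kyoto background and all carried the mutation on one allele. The other 6 arrays are tumours of homozygous mutants at 9 months and did not enter the fit. No normal thyroid and no wild-type animal was used here, and the labels give no sex, litter, tumour stage or array date, so age cannot be told apart from anything that changed with it. Each array carries an animal code of its own, so the p-values measure the spread between tumours of different animals. The probe set of Cdkn1b reports transcript level and does not check the genotype.

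Medullary thyroid carcinoma arises from C cells, the calcitonin-secreting endocrine cells that lie among the thyroid follicles. C cells store peptide hormones in dense-core granules, fire action potentials and release their granules through the same calcium-triggered fusion machinery that neurons use. The follicular cells around them make thyroid hormone from thyroglobulin, and a dissected tumour can hold both kinds of cell together with vessels, stroma, fat, muscle and parathyroid tissue. In bulk samples of this kind, fewer cells of a type and less RNA per cell cannot be told apart.

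Expression was measured from total RNA on Affymetrix arrays, and the values are log2 levels, on which a difference of 1 is a 2-fold change. A gene is represented by its brightest probe set with a single platform symbol, and the 11376 genes with a mean of at least 6.33 were tested. Differences are 18 months minus 9 months, tested with limma across all 11376 genes, and a gene is said to have risen or fallen at a Benjamini-Hochberg adjusted p under 0.05. Array medians lay between 7.55 and 7.65. On the first principal component, which held 70.4% of the variance, the 9-month tumours lay together between -33.6 and -24.0, while the 18-month tumours ran from -17.0 to 65.0. The 18-month replicates 4 and 5, at -17.0 and -1.15, stood nearest the younger tumours and replicate 1, at 65.0, farthest from them. Pairwise correlations were 0.989 to 0.995 among the 9-month tumours and 0.951 to 0.990 among the 18-month tumours.

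**Figure D1:**
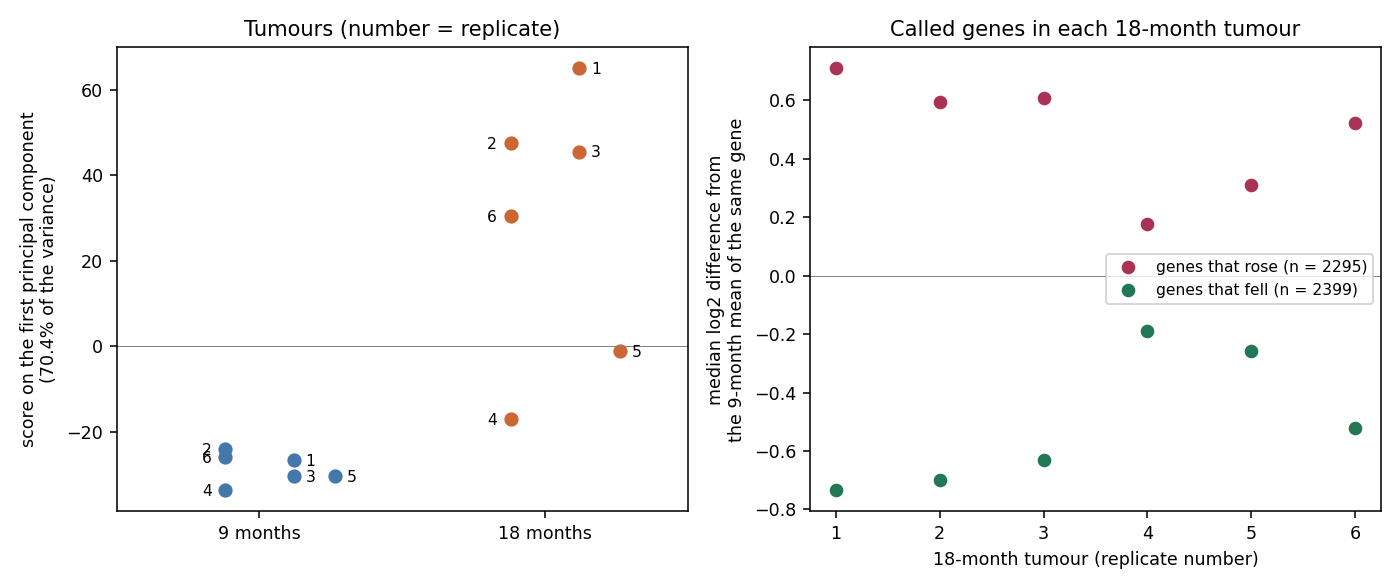
The 12 tumours by age. The first panel plots the position of each tumour on the first principal component, with points labelled by replicate number; the second plots the median deviation, in log2 units, of each 18-month tumour from the 9-month mean over the genes that rose and over those that fell. Replicates 4 and 5 sit closest to the 9-month tumours, at medians of 0.178 and 0.309 for the genes that rose, and replicate 1 sits farthest, at 0.709.

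Older tumours differed from younger ones in 4694 genes, 41.3% of those tested, of which 2295 (20.2%) rose and 2399 (21.1%) fell. The median difference over all genes was -0.0042. A difference of at least 1 was seen in 913 called genes (8.03%), 440 that rose (3.87%) and 473 that fell (4.16%). All 6 values at 18 months lay above all 6 at 9 months in 1031 genes (9.06%) and below them in 1021 (8.98%). Of these, 1027 rose (9.03%) and 1015 fell (8.92%). Leaving out the 18-month replicates 4 and 5 together gave 3074 genes that rose (27%) and 3080 that fell (27.1%), and raised the number at least 1 in size from 913 to 1475 and the number without overlap from 2042 to 4822. Leaving out 18-month replicate 4 alone gave 3475 genes without overlap. Replicates 4 and 5 were chosen from these same values, as the older tumours nearest the younger ones. More calls and larger differences without them mostly follow from that choice and are no support, here and in the lists below. List counts without them stand beside the 27% and 27.1% over all genes.

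The older tumours also varied more among themselves. The median standard deviation of a gene was 0.19 among the 18-month tumours and 0.11 among the 9-month tumours, and it was larger at 18 months in 9438 genes (83.0%). A standard deviation of 1 or more was found in 349 genes at 18 months and in 29 at 9 months. Among the genes that rose, replicate 4 was the 18-month tumour nearest the 9-month mean in 70.6% and replicate 5 in 14.5%, and among those that fell in 53.4% and 30.3%. In most called genes, then, replicate 4 or 5 was the older tumour closest to the younger ones, and replicate 1 was most often the farthest. Markers of follicular cells moved with the same tumours: the mean level of a list of 14 such genes was 11.50 to 11.62 at 9 months and 7.47 to 11.32 at 18 months, with replicates 4 and 5 highest among the older tumours. A fit with this mean as a covariate follows the gene lists.

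Among the 36 gene lists, many counts are small. Of 42 counts of more than 3 members called in a direction, 11 moved by over 1.5 times when 1 array was left out, and each is given with its list. Of 30 counts of 3 or fewer, 16 did so. Each list count is to be read beside the 20.2% that rose and the 21.1% that fell over all genes.

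Most of the largest rises without overlap were in genes of neurons and endocrine cells. Cbln4 encodes a secreted cerebellin that links synaptic partners. Its lowest, median and highest values were 6.52, 6.66 and 6.90 at 9 months and 7.40, 11.30 and 12.21 at 18 months, a difference of 3.67 (SE 0.81, limma adjusted p = 0.00514) or 12.7-fold. Replicates 4 and 5 were the low 18-month tumours, at 7.40 and 7.73, still above every 9-month tumour. Calcb, the gene of beta-CGRP, measured 8.53, 8.96 and 9.47 at 9 months and 9.72, 12.49 and 13.31 at 18 months in the same order, a rise of 2.87 (SE 0.60, limma adjusted p = 0.0039) or 7.32-fold. Calcb shares sequence with Calca, and cross-hybridisation between their probe sets was not tested. Gipr, the receptor for the incretin hormone GIP, measured 7.22, 7.79 and 8.47 at 9 months and 8.56, 10.52 and 11.29 at 18 months and rose by 2.28 (SE 0.48, limma adjusted p = 0.00393). The groups did not overlap in either gene, and replicates 4 and 5 were again the lowest of the 18-month tumours.

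The other 9 of the 12 largest rises spanned 2.02 to 2.30. They held 2 genes of the secretory granule, Syt4, a synaptotagmin (2.21, SE 0.40, limma adjusted p = 0.00206), and Ptprn, the granule membrane protein IA-2 (2.15, SE 0.40, limma adjusted p = 0.00238). Neuronal genes among them were Scn2a, a sodium channel pore (2.08, SE 0.39, limma adjusted p = 0.00245), Dpysl5, a collapsin response mediator protein (2.09, SE 0.37, limma adjusted p = 0.00191), Iqsec3, an exchange factor of inhibitory synapses (2.21, SE 0.40, limma adjusted p = 0.00204), and Olfm1, a secreted olfactomedin (2.09, SE 0.31, limma adjusted p = 9.76e-04). Zcchc12 (2.30, SE 0.49, limma adjusted p = 0.00441), Adgrg7, an adhesion G protein-coupled receptor (2.19, SE 0.49, limma adjusted p = 0.00519), and Fxyd3, a regulator of the sodium pump (2.02, SE 0.46, limma adjusted p = 0.00563), completed the set. In all 12 genes replicates 4 and 5 held the 2 lowest 18-month values.

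Among the 12 largest falls, several were genes of the thyroid follicle or of polarised epithelium. Dsc3, a desmosomal cadherin, measured 10.95, 11.10 and 11.36 at 9 months and 5.91, 7.96 and 10.62 at 18 months, a difference of -2.89 (SE 0.64, limma adjusted p = 0.00508). Duox1, the oxidase that makes hydrogen peroxide for hormone synthesis, measured 10.41, 10.69 and 10.77 at 9 months and 6.06, 7.66 and 10.32 at 18 months and fell by 2.56 (SE 0.59, limma adjusted p = 0.00594). Both genes were tightly grouped at 9 months and spread over more than 4 log2 units at 18 months without touching the younger range. Cxcl13, a chemokine that attracts B cells, measured 10.09, 10.43 and 10.92 at 9 months and 6.82, 7.72 and 9.28 at 18 months, a difference of -2.49 (SE 0.42, limma adjusted p = 0.00156).

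Iyd, the deiodinase that recovers iodide from iodotyrosines (-2.42, SE 0.67, limma adjusted p = 0.0135), Slc26a7, an anion transporter of the follicular cell (-2.17, SE 0.67, limma adjusted p = 0.0229), and Cdh16, kidney-type cadherin, which follicular cells also carry (-2.39, SE 0.49, limma adjusted p = 0.00367), belonged to the follicular list as Duox1 did. Transporters and channels made up most of the rest, with Kcnj16 (-2.43, SE 0.66, limma adjusted p = 0.013) and Kcnh7 (-2.29, SE 0.51, limma adjusted p = 0.00519), both potassium channels, Atp6v0a4, a proton pump subunit (-2.38, SE 0.58, limma adjusted p = 0.00809), and Trpm3, a cation channel (-2.19, SE 0.53, limma adjusted p = 0.00739). The remaining falls were Them5, a mitochondrial thioesterase (-2.23, SE 0.37, limma adjusted p = 0.00144), and Cpvl, a carboxypeptidase (-2.17, SE 0.52, limma adjusted p = 0.00738). In 11 of the 12 genes, all but Them5, replicates 4 and 5 held the 2 highest 18-month values.

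**Figure D2:**
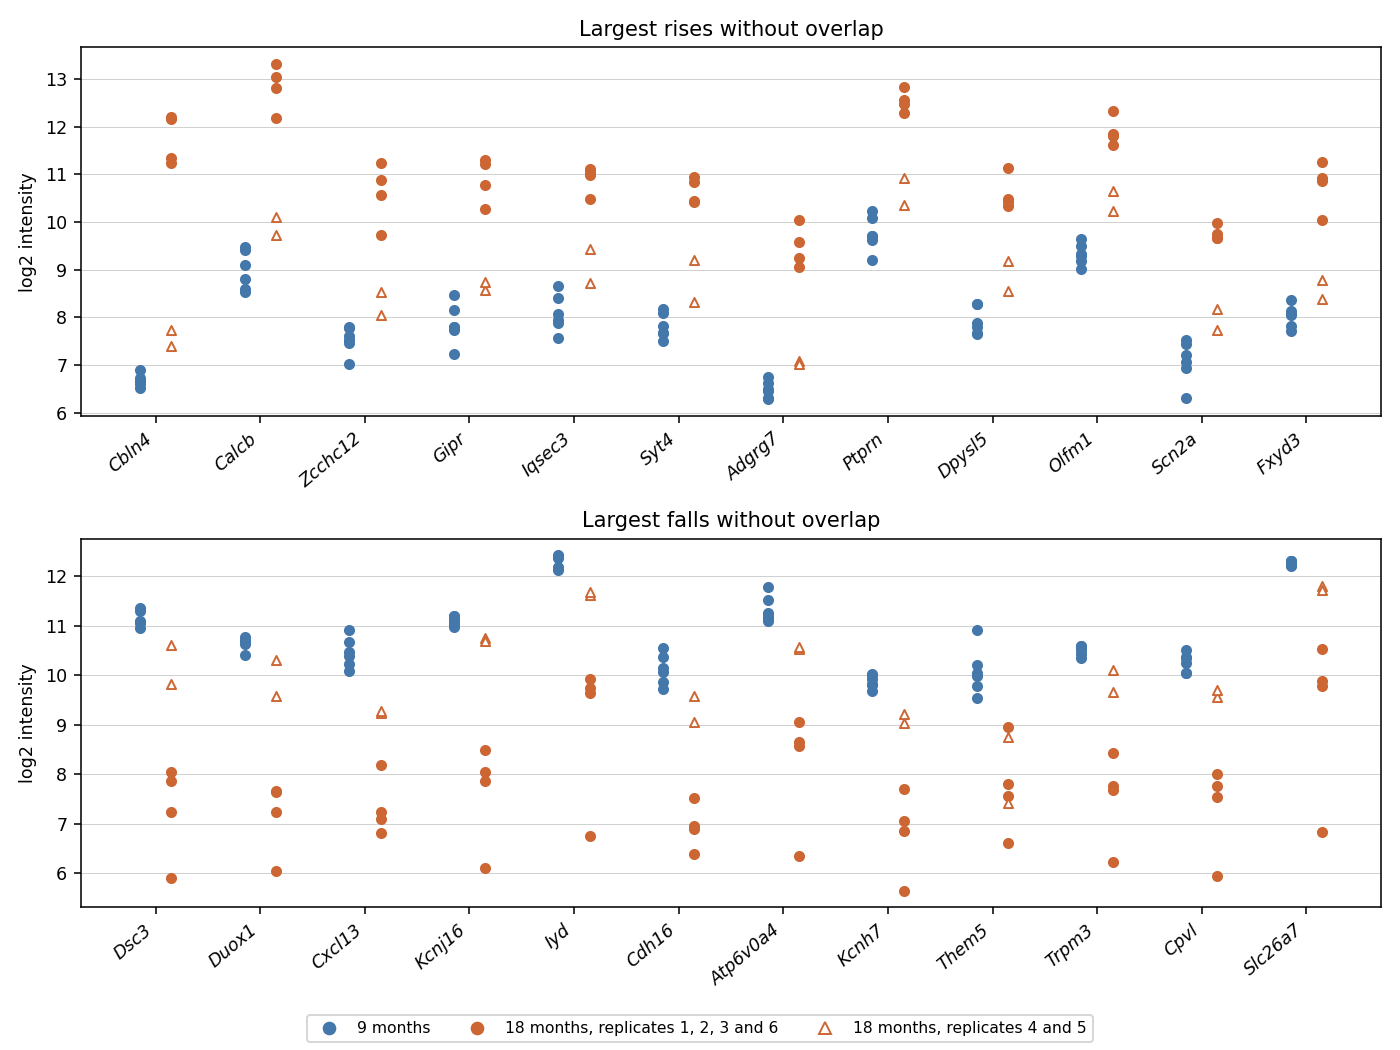
Log2 levels of the 12 largest rises and 12 largest falls without overlap, one point per tumour, with 9-month and 18-month tumours in separate colours. Cbln4 spans 7.40 to 12.21 at 18 months against 6.52 to 6.90 at 9 months, and in each gene the older tumours spread more widely than the younger ones.

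The defining genes of the C cell were strongly expressed at both ages. Calca, which encodes calcitonin and alpha-CGRP, measured 13.75, 13.81 and 13.92 at 9 months and 14.01, 14.07 and 14.12 at 18 months and rose by 0.24 (SE 0.05, limma adjusted p = 0.00245), without overlap. Its level was close to the highest value in the table, 14.49, where array signals can compress differences. Ret, the receptor tyrosine kinase mutated in the hereditary human tumour, measured 10.88, 11.04 and 11.40 at 9 months and 10.80, 11.10 and 11.48 at 18 months, a difference of 0.06 (SE 0.12, limma adjusted p = 0.714). Chga, the granule protein chromogranin A, measured 11.82, 12.76 and 13.15 at 9 months and 12.25, 12.44 and 13.15 at 18 months, a difference of -0.14 (SE 0.21, limma adjusted p = 0.625). Neither Ret nor Chga passed the test, and their 2 age groups overlapped throughout. Chga is also on the parathyroid list. At 9 months Chga and the mean of that list were lowest in replicate 1 (11.82 and 9.84) and highest in replicate 4 (13.15 and 12.53). Both were highest in replicate 4 at 18 months too (13.15 and 12.55). That mean includes Chga, and the part of parathyroid tissue in its level was not tested. The sign of the Ret difference turned to -0.03 without replicates 4 and 5.

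Of the C cell list as a whole, 15 of 21 members rose and 1 fell, with a median difference of 1.22 beside -0.0042 over all genes. Without the 18-month replicates 4 and 5 the counts were 16 and 1. The list shares members with lists that follow, such as Pcsk2 with prohormone processing and Cacna1c with voltage-gated channels. Their counts are therefore not independent. Per tumour, the mean of the list was 9.95 to 10.46 at 9 months and 10.61 to 11.47 at 18 months, with replicate 4 the lowest of the older tumours. Members that rose were Kcnh2, the ERG potassium channel (1.22, SE 0.16, limma adjusted p = 6.17e-04), and Casr, the calcium-sensing receptor through which C cells read blood calcium (0.56, SE 0.09, limma adjusted p = 0.00151). Syp, synaptophysin (1.89), Snap25, a SNARE of granule fusion (1.35), and Cpe, carboxypeptidase E (1.49), rose without overlap as well. Nkx2-1, a transcription factor shared by C cells and follicular cells, was the member that fell (-0.37).

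Peptide hormones and granule proteins moved less uniformly: of 32 members tested, 10 rose, 1 fell and 21 did not pass, with a median difference of 0.21. Those that rose included the granins Scg5 (0.88, SE 0.12, limma adjusted p = 7.95e-04) and Chgb (1.18, SE 0.16, limma adjusted p = 7.95e-04), and Adm, adrenomedullin (0.94, SE 0.14, limma adjusted p = 0.00105), all without overlap. Nmu, neuromedin U (1.07), Cartpt, the CART peptide (1.32), and Scg2, secretogranin II (2.25), rose with overlapping groups. Sst and Pyy, the genes of somatostatin and peptide YY, had differences of 1.85 and 2.01 that did not pass (limma adjusted p = 0.222 and 0.177). Stc1, stanniocalcin, was the one that fell (-0.50). With the 18-month replicates 4 and 5 left out, 10 rose and 1 fell.

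The enzymes that cut and trim prohormones gave the gene with the smallest p of their list, Pcsk1n, which encodes proSAAS, a granule protein that inhibits prohormone convertase 1. Of 16 members tested, 9 rose and 4 fell (median 0.72), and the counts were the same without replicates 4 and 5. Pcsk1n measured 10.55, 10.91 and 11.26 at 9 months and 12.01, 12.40 and 12.73 at 18 months and rose by 1.49 (SE 0.15, limma adjusted p = 2.63e-04) or 2.81-fold. Here replicates 4 and 5, at 12.22 and 12.18, lay inside the range of the other 4 older tumours. Pcsk2, prohormone convertase 2, measured 12.27, 12.59 and 12.79 at 9 months and 13.09, 13.49 and 13.63 at 18 months and rose by 0.86 (SE 0.10, limma adjusted p = 6.04e-04). Furin, the convertase of the secretory pathway, rose by 0.63 (SE 0.08, limma adjusted p = 7.01e-04), and Pam, which amidates peptide ends, by 0.80. In each of these 4 genes the age groups were separate. Pcsk5, Cpd, Ctsl and Cpa4, which are proteases found widely outside endocrine cells, were the members that fell, by differences of -1.49, -0.32, -0.38 and -1.56. The 4 falls became 2 without any of 9-month replicates 1, 5 and 6 or 18-month replicate 2.

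For the machinery of vesicle fusion and release, of 40 members tested, 27 rose, 3 fell and 10 did not pass, with a median difference of 0.86. Leaving out the 18-month replicates 4 and 5, 29 rose and 4 fell. Syt7, a slow calcium sensor of granule release, measured 9.70, 9.94 and 10.15 at 9 months and 10.66, 11.08 and 11.19 at 18 months and rose by 1.07 (SE 0.10, limma adjusted p = 2.63e-04). Rph3al, a Rab effector on granules also known as Noc2, rose by 1.08 (SE 0.13, limma adjusted p = 6.04e-04). The 2 groups were separate in both genes. Sensors and clamps that rose further were Syt1 (2.23), Syt5 (1.66), Syt11 (1.74) and Cplx2, a complexin (1.32), and the priming factors Cadps (1.51) and Unc13a (1.29) rose too.

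Not all members of a family moved alike. Sv2b, a synaptic vesicle glycoprotein, measured 7.39, 7.61 and 7.85 at 9 months and 6.25, 6.32 and 7.09 at 18 months and fell, with a difference of -1.11 (SE 0.15, limma adjusted p = 7.95e-04). Its paralogue Sv2a rose (0.84). Rab27a rose and Rab27b fell, with differences of 1.08 and -0.78; both are small GTPases that dock granules. Sypl1, a relative of synaptophysin found outside neuroendocrine cells, fell (-0.82).

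Voltage-gated channels and their subunits, which give endocrine cells their electrical activity, followed the same direction: of 49 members tested, 31 rose, 4 fell and 14 did not pass, with a median difference of 0.97. Cacna1a, the pore of P/Q-type calcium channels, measured 8.55, 8.76 and 9.04 at 9 months and 9.55, 10.06 and 10.38 at 18 months and rose by 1.27 (SE 0.14, limma adjusted p = 4.60e-04). Abcc8, the sulphonylurea receptor of the ATP-sensitive potassium channel, measured 9.19, 9.38 and 9.80 at 9 months and 10.46, 11.49 and 11.63 at 18 months and rose by 1.78 (SE 0.21, limma adjusted p = 5.65e-04). Its pore partner Kcnj11 rose by 1.75. Cacna1c, the L-type pore, rose by 1.42 (SE 0.18, limma adjusted p = 6.17e-04). None of these genes had overlapping groups. The pores Cacna1b (1.37), Cacna1e (1.80) and Cacna1h (1.71) and the sodium channel genes Scn2a (2.08), Scn3a (1.80) and Scn3b (2.52) rose as well. Members that fell were the potassium channel genes Kcnh7 (-2.29), Kcnmb4 (-0.95) and Kcnk1 (-0.62) and the T-type pore Cacna1g (-0.16). Leaving out replicates 4 and 5 gave the same counts, 31 and 4. The 4 falls became 2 without any of 9-month replicates 4 and 5 or 18-month replicates 2, 3 and 6.

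Transmitter genes and neuronal adhesion genes were tested as further lists. Of 28 transmitter genes, 14 rose and 1 fell (median 0.81). In the fit without replicates 4 and 5, 16 rose and 3 fell. Chrnb2, a nicotinic receptor subunit, measured 8.35, 8.74 and 8.93 at 9 months and 9.52, 10.74 and 10.96 at 18 months and rose by 1.80 (SE 0.23, limma adjusted p = 6.04e-04). Htr3a, the ionotropic serotonin receptor, rose by 1.34 (SE 0.21, limma adjusted p = 0.00106) and Grin1, the obligate NMDA receptor subunit, by 1.72 (SE 0.30, limma adjusted p = 0.00174). The groups were separate in all 3. The GABA-synthesising enzymes Gad1 (1.67) and Gad2 (2.61) rose with overlap. Th, tyrosine hydroxylase, had a difference of 0.12 that did not pass.

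Of 25 synapse organisers and adhesion genes, 15 rose and 1 fell (median 1.02). When replicates 4 and 5 were left out, 17 rose and 1 fell. Cadm1, a cell adhesion molecule of the immunoglobulin family, measured 9.50, 9.68 and 9.997 at 9 months and 10.45, 11.36 and 11.73 at 18 months and rose by 1.48 (SE 0.19, limma adjusted p = 6.79e-04). Nfasc, neurofascin, rose by 1.78 (SE 0.25, limma adjusted p = 8.42e-04) and Ncam1, the neural adhesion molecule CD56, by 1.61 (SE 0.24, limma adjusted p = 0.00102). In these 3 genes every older tumour exceeded every younger one. Lsamp, a limbic adhesion protein, was the member that fell (-0.46).

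**Figure D3:**
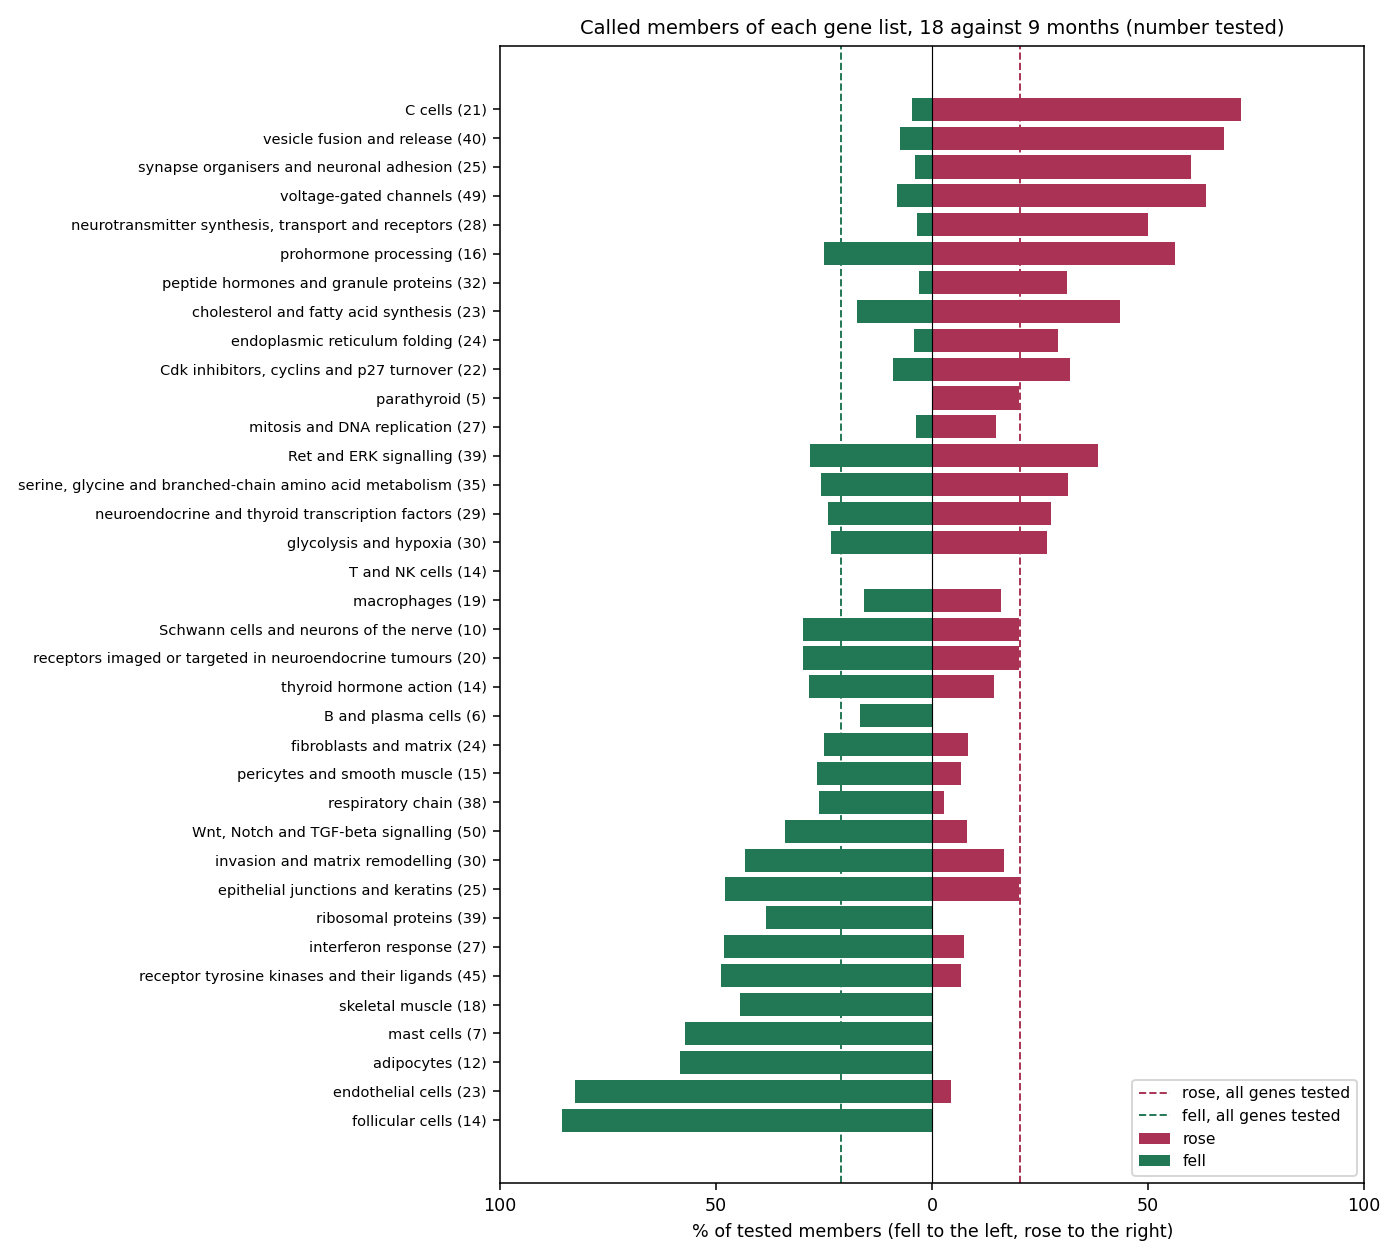
Members of each gene list that rose or fell at 18 months, as a share of the members tested, beside the shares over all 11376 genes (20.2% rose, 21.1% fell). Vesicle fusion (27 of 40 rose) and voltage-gated channels (31 of 49) stand at one side, and follicular cells (12 of 14 fell) and endothelial cells (19 of 23) at the other.

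Of the transcription factors of neuroendocrine and thyroid cells, 8 of 29 rose and 7 fell (median 0.10), shares near the 20.2% and 21.1% over all genes. Myt1, a zinc finger factor of neuroendocrine differentiation, measured 8.11, 8.44 and 8.63 at 9 months and 9.16, 9.76 and 10.16 at 18 months and rose by 1.28 (SE 0.15, limma adjusted p = 5.17e-04). Prox1, a homeobox factor of endocrine progenitors and lymphatic endothelium, rose by 1.42 (SE 0.20, limma adjusted p = 8.42e-04) and Etv1, an ETS factor, by 0.65 (SE 0.10, limma adjusted p = 9.57e-04). All 3 were separate by age. The relatives of Myt1, St18 and Myt1l, rose by 1.55 and 1.47, and the endocrine factors Foxa2 and Isl1 by 1.57 and 1.29. Pax8 and Foxe1, which set follicular identity, fell with differences of -1.81 and -1.63. With the 18-month replicates 4 and 5 left out, 9 rose and 8 fell, and 4 fell without any of 9-month replicate 4 or 18-month replicates 2 and 3.

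Rest, the repressor that keeps neuronal genes silent in other cells, was singled out after its values were seen. The 9-month tumours lay between 9.13 and 9.35 and the 18-month tumours, from replicate 1 to replicate 6, at 7.05, 7.19, 7.32, 9.10, 8.76 and 8.12. Rest fell, with a difference of -1.31 (SE 0.33, limma adjusted p = 0.00872), and replicate 4 stood just below the younger range. With the mean of the follicular cell list in the fit, the difference was -0.28 and did not pass (limma adjusted p = 0.536).

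Rest acts through a known DNA element, RE1, and after its fall was seen promoter windows from 250 bases before to 50 bases after the RefSeq gene start (GRCr8) were searched for its left arm, TTCAGCACC, and its right arm, GGACAGCGC, on both strands. The arms do not overlap. The left arm was present in 104 of all 27457 promoters (0.379%) and in 44 of the 9403 promoters of tested genes (0.468%). Of the genes that rose without overlap, 840 matched a promoter and 11 held it (1.31%); of those that fell without overlap, 827 matched and 3 held it (0.363%). The right arm was found in 0.441% of all promoters, 0.808% of tested genes, 1.31% of the rises and 1.09% of the falls. The left arm followed, after any 2 bases, by the start of the right arm, GGACAG, was found in 2 of all promoters, 1 of the 9403 of tested genes and 0 of the rises and falls. Also searched were the cAMP response element TGACGTCA (1.91% of all promoters, 2.90% of tested genes, 3.10% of the rises and 1.21% of the falls), the E-box CAGCTG (15.1%, 17.0%, 19.5% and 19.3%) and the Nkx2-1 core CTCAAG (15.6%, 13.9%, 12.4% and 16.4%). Neither arm was found in the 9 promoters matched for the 12 largest rises or the 10 matched for the 12 largest falls. The median share of G and C bases was 63.5% in promoters of the rises. It was 60.3% in those of tested genes and of the falls. The part of base content in these shares was not tested. A match is a description of the letters, not a binding site or a cause. The 11 rises were Celsr3, Disp2, Dnaja4, Elavl4, Gch1, Il6r, Lhfpl5, Ptprn2, Sez6l2, Tmem107 and Unc13a. Of these, 3 are shown because they encode proteins of the granule or synapse and, for the first and second, hold both arms. Ptprn2 encodes the granule protein phogrin and rose by 1.55, Unc13a encodes the vesicle priming factor Munc13-1 and rose by 1.29, and Sez6l2 encodes a neuronal membrane protein and rose by 1.86. The windows are chr6:143582318-143582617 on the plus strand, chr16:18415737-18416036 on the minus strand and chr1:190987397-190987696 on the plus strand, written 5′ to 3′ in the direction of the gene, with capitals marking the RE1 arms, here in reverse complement.
Ptprn2: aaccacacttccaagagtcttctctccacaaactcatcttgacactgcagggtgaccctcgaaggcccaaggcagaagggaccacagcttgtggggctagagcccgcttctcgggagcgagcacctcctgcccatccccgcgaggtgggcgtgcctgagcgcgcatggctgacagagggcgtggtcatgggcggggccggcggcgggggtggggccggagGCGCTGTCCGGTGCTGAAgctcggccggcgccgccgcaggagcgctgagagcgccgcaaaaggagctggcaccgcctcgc
Unc13a: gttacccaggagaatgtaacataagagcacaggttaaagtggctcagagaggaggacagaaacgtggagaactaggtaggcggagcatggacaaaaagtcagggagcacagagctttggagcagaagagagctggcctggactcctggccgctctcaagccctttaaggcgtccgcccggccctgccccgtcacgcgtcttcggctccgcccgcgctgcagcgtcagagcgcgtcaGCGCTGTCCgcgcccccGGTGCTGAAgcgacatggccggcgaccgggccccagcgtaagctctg
Sez6l2: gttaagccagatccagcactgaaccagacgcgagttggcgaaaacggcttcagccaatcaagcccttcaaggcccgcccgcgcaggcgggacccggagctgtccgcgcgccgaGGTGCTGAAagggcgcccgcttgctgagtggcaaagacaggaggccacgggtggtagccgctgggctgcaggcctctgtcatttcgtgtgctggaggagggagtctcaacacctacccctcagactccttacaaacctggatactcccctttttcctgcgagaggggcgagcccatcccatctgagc
In Ptprn2 the arms adjoin, in Unc13a a short stretch parts them, and in Sez6l2 the left arm stands alone.

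Co-receptors of Ret and feedback genes of ERK signalling were mixed. For this list, of 39 members tested, 15 rose, 11 fell and 13 did not pass, with a median difference of 0.16, and without replicates 4 and 5, 18 rose and 12 fell. The co-receptors of Ret ligands fell, Gfra1 by a difference of -1.35, Gfra2 of -1.74 and Gfra3 of -1.42, while Gfra4, the C cell co-receptor, had 0.21 and did not pass. Braf, a kinase upstream of ERK, measured 9.35, 9.58 and 9.67 at 9 months and 9.64, 10.22 and 10.24 at 18 months and rose by 0.52 (SE 0.11, limma adjusted p = 0.00358). Nras, a small GTPase of the pathway, measured 10.27, 10.33 and 10.43 at 9 months and 9.70, 10.02 and 10.08 at 18 months and fell, with a difference of -0.36 (SE 0.07, limma adjusted p = 0.00227). Spred1, an inhibitor of Ras activation, fell by a difference of -0.27 (SE 0.06, limma adjusted p = 0.00487). Nras and Spred1 were separate by age, and in Braf the lowest 18-month tumour, at 9.64, reached into the 9-month range. The ERK output genes Dusp6 (0.72), Dusp4 (0.94), Etv4 (0.76) and Etv5 (1.11) rose, and Spry1 (-0.44) and Spry2 (-0.55), feedback inhibitors, fell. Rasgrf1, a calcium-dependent activator of Ras, rose by 2.52.

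Cdkn1b itself measured 10.67, 10.76 and 10.90 at 9 months and 10.65, 10.96 and 11.10 at 18 months, a difference of 0.14 (SE 0.08, limma adjusted p = 0.161) that did not pass. The 2 groups overlapped. Without replicates 4 and 5 the difference was 0.22 and passed (limma adjusted p = 0.015), and without replicate 4 alone it was 0.19 (limma adjusted p = 0.022). Replicates 4 and 5 were chosen for lying nearest the younger tumours, so these passes are a description and no support. Among 22 genes of Cdk inhibitors, cyclins and p27 turnover, 7 rose and 2 fell (median 0.14), against 9 and 3 without replicates 4 and 5. Ccne2, cyclin E2, measured 6.67, 7.04 and 7.08 at 9 months and 7.25, 8.12 and 8.94 at 18 months and rose by 1.13 (SE 0.23, limma adjusted p = 0.0039). Skp2, the ubiquitin ligase subunit that targets p27 for degradation, measured 7.48, 7.66 and 7.87 at 9 months and 7.94, 8.09 and 8.54 at 18 months and rose by 0.48 (SE 0.10, limma adjusted p = 0.00404). Ccnd3, a D-type cyclin, rose by 0.39 (SE 0.09, limma adjusted p = 0.00511). No older tumour fell within the younger range for these 3 genes, and for Skp2 replicates 4 and 5 lay inside the range of the other older tumours. Cyclin genes Ccnd1 (0.80) and Ccnd2 (0.82) rose too, and the kinase genes Cdk2 (-0.89) and Cdk6 (-1.19) fell.

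Genes of mitosis and DNA replication mostly did not pass: of 27 members tested, 4 rose, 1 fell and 22 did not pass, with a median difference of 0.14. Without replicates 4 and 5, 9 rose and 2 fell. Prc1, a spindle midzone protein, measured 6.71, 6.87 and 7.11 at 9 months and 7.04, 7.53 and 8.68 at 18 months and rose by 0.69 (SE 0.22, limma adjusted p = 0.0258), with replicate 1 high at 8.68 and some overlap. Cenpa, the centromeric histone, rose by 0.21 (SE 0.06, limma adjusted p = 0.0208), also with overlap. Ect2, the exchange factor that starts cytokinesis, fell without overlap, by a difference of -1.28 (SE 0.24, limma adjusted p = 0.0023). Top2a and Rrm2, genes of dividing cells, had 0.84 and 0.73 and did not pass. The list mean was 8.21 in 18-month replicate 1 and 7.30 to 7.66 in the other older tumours. At 9 months the list mean was 7.45 to 7.58. The call of Prc1 was lost without 9-month replicate 4 (limma adjusted p = 0.0542). The 4 rises became 2 without 9-month replicate 3 or 18-month replicate 3, 1 without 9-month replicate 4 and 7 without 18-month replicate 5.

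Receptors used to image or treat neuroendocrine tumours were read next: of 20 members tested, 4 rose, 6 fell and 10 did not pass, with a median difference of 0.01. Over all genes 20.2% rose and 21.1% fell, so the share that rose here was near that of all genes. The incretin receptors Gipr (2.28) and Glp1r (1.58) rose, the first without overlap. The somatostatin receptor genes Sstr2, Sstr3 and Sstr5 had differences of 0.01, -0.01 and -0.09 and did not pass, and Sstr2 ran from 7.04 to 7.12 (median 7.06) at 9 months and from 6.56 to 7.55 (median 7.12) at 18 months. Adcyap1r1, the PACAP receptor, measured 8.04, 8.22 and 8.28 at 9 months and 6.91, 7.17 and 7.89 at 18 months and fell, with a difference of -0.85 (SE 0.16, limma adjusted p = 0.00245). Npy1r, a neuropeptide Y receptor, fell by a difference of -0.64 (SE 0.12, limma adjusted p = 0.00297) and Met, the hepatocyte growth factor receptor, by -1.19 (SE 0.24, limma adjusted p = 0.00361). Adcyap1r1 and Npy1r were separate by age and Met was not. Replicates 4 and 5 of the older group left out, 3 rose and 6 fell.

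For genes of serine, glycine and branched-chain amino acid metabolism, of 35 members tested, 11 rose, 9 fell and 15 did not pass, with a median difference of 0.04. With the 18-month replicates 4 and 5 left out, 13 rose and 14 fell. Slc7a5, the large neutral amino acid transporter LAT1, measured 8.18, 8.40 and 8.67 at 9 months and 8.99, 10.72 and 11.53 at 18 months and rose by 1.98 (SE 0.36, limma adjusted p = 0.00216) or 3.95-fold. Slc1a4, a transporter of alanine, serine and cysteine, rose by 0.94 (SE 0.14, limma adjusted p = 0.00106). Both were separate by age, and Slc1a5 rose by 1.10 and Slc7a11, the cystine importer, by 1.85. Bcat1, the cytosolic transaminase of branched-chain amino acids, rose by 2.62 and the mitochondrial form Bcat2 fell (-0.71). Phgdh (-1.19) and Psat1 (-1.86), the first enzymes of serine synthesis, fell, as did Shmt1 (-1.56). Mccc2, an enzyme of leucine breakdown, fell without overlap, by a difference of -0.45 (SE 0.08, limma adjusted p = 0.00251).

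In glycolysis and the hypoxia response, of 30 members tested, 8 rose, 7 fell and 15 did not pass, with a median difference of 0.10, and without replicates 4 and 5, 12 rose and 7 fell. With all 12 arrays, both shares were near the 20.2% and 21.1% over all genes. Adm, also on this list, had its smallest p and rose by 0.94 (SE 0.14, limma adjusted p = 0.00105) without overlap. Of the neuronal isoforms, Eno2, neuron-specific enolase, measured 9.70, 9.82 and 10.32 at 9 months and 10.52, 11.79 and 12.27 at 18 months and rose by 1.63 (SE 0.27, limma adjusted p = 0.0014), and Aldoc, the brain aldolase, measured 8.28, 8.35 and 8.55 at 9 months and 8.64, 9.96 and 10.73 at 18 months and rose by 1.53 (SE 0.28, limma adjusted p = 0.00242). Both were separate by age. The broadly expressed isoforms Eno1 and Aldoa had -0.04 and -0.03 and did not pass. Ldhb (-1.26), Hk2 (-1.25) and Vegfa, the endothelial growth factor (-0.98), fell.

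The share of respiratory chain genes that fell was near the 21.1% over all genes, and that of ribosomal protein genes was above it. For the respiratory chain, of 38 members tested, 1 rose, 10 fell and 27 did not pass, with a median difference of -0.08, and without replicates 4 and 5, 5 rose and 12 fell. Sdha, the flavoprotein of succinate dehydrogenase, measured 11.07, 11.20 and 11.27 at 9 months and 10.39, 10.49 and 10.85 at 18 months and fell, with a difference of -0.61 (SE 0.09, limma adjusted p = 7.95e-04). Sdhd and Uqcrc2, subunits of complexes II and III, fell by differences of -0.36 (SE 0.08, limma adjusted p = 0.00523) and -0.27 (SE 0.06, limma adjusted p = 0.00436). All 3 were separate by age. For ribosomal proteins, of 39 members tested, 0 rose, 15 fell and 24 did not pass, with a median difference of -0.14, and without replicates 4 and 5, 0 rose and 17 fell. In 36 of the 39 the difference was negative. Per tumour, the mean of the ribosomal list was 11.64 to 11.75 at 9 months and 11.48 to 11.61 at 18 months. Rps19 measured 10.92, 11.10 and 11.16 at 9 months and 10.47, 10.55 and 10.73 at 18 months and fell, with a difference of -0.49 (SE 0.06, limma adjusted p = 6.04e-04), and Rpl7 and Rpl34 fell by -0.44 (SE 0.08, limma adjusted p = 0.00192) and -0.30 (SE 0.06, limma adjusted p = 0.00254) as signed differences. The older tumours were lower in each of the 3 without overlap.

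Genes of cholesterol and fatty acid synthesis tended upward: of 23 members tested, 10 rose, 4 fell and 9 did not pass, with a median difference of 0.21. Leaving out the 18-month replicates 4 and 5, 13 rose and 5 fell. Fdps, farnesyl diphosphate synthase, measured 10.06, 10.15 and 10.21 at 9 months and 10.39, 10.48 and 10.64 at 18 months and rose by 0.36 (SE 0.05, limma adjusted p = 9.24e-04), and Dhcr7 and Lss, later enzymes of cholesterol synthesis, rose by 0.54 (SE 0.08, limma adjusted p = 0.00123) and 0.52 (SE 0.09, limma adjusted p = 0.00225), all without overlap. Tm7sf2, a sterol reductase, fell (-1.25), as did Scd, the fatty acid desaturase (-1.73). The 4 falls became 2 without 18-month replicate 2. In the endoplasmic reticulum, of 24 members tested, 7 rose, 1 fell and 16 did not pass, with a median difference of 0.06. Sel1l, a partner of the Hrd1 ubiquitin ligase, rose by 0.42 (SE 0.07, limma adjusted p = 0.00168) without overlap. Sec61a1, the translocon pore, and Atf6, a stress sensor, rose by 0.36 (SE 0.07, limma adjusted p = 0.00321) and 0.32 (SE 0.07, limma adjusted p = 0.00343) with overlap at the edges. The fit without replicates 4 and 5 gave 7 rises and 5 falls here.

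Follicular cell markers had the lowest median difference of the cell type lists: of 14 members tested, 0 rose, 12 fell and 2 did not pass, with a median difference of -1.90. In the fit without replicates 4 and 5, 13 fell. Tg, thyroglobulin, measured 14.30, 14.34 and 14.37 at 9 months and 11.08, 13.98 and 14.34 at 18 months, a difference of -0.73 (SE 0.46, limma adjusted p = 0.223) that did not pass. Replicate 1 was low, at 11.08, and the other 5 older tumours lay between 13.94 and 14.34, so Tg remained among the brightest genes in them. Levels this close to the highest value in the table, 14.49, can compress differences, as for Calca. Without replicate 1 the difference was -0.23 (limma adjusted p = 0.047). Duoxa1, the maturation factor of the dual oxidase, measured 9.74, 9.88 and 9.95 at 9 months and 6.92, 7.64 and 9.50 at 18 months and fell, with a difference of -1.82 (SE 0.40, limma adjusted p = 0.00511). Tshr, the thyrotropin receptor, fell by a difference of -1.99 and Slc5a5, the iodide symporter, by -2.19. Per tumour, the mean of the follicular list was 11.50 to 11.62 at 9 months. At 18 months it was 7.47, 9.50, 9.22, 11.32, 11.06 and 9.65 in replicates 1 to 6, so that replicates 4 and 5 stood just under the younger tumours.

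Genes of thyroid hormone action varied in the same tumours: of 14 members tested, 2 rose, 4 fell and 8 did not pass, with a median difference of -0.17. Such small counts stand near the 20.2% and 21.1% over all genes. Thrsp, a lipogenic gene driven by thyroid hormone, measured 12.02, 12.23 and 12.40 at 9 months and 7.40, 10.08 and 12.02 at 18 months and fell, with a difference of -2.04 (SE 0.60, limma adjusted p = 0.0188). Thrb, a thyroid hormone receptor, fell by a difference of -0.80 (SE 0.23, limma adjusted p = 0.0174) and Slc16a10, a transporter of aromatic amino acids and thyroid hormone, rose by 0.63 (SE 0.12, limma adjusted p = 0.0029). Thrb and Slc16a10 were separate by age and Thrsp touched the younger range. The 4 falls became 2 without any of 9-month replicates 5 and 6 or 18-month replicate 2, and 7 without 18-month replicate 4, replicate 5 or both.

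**Figure D4:**
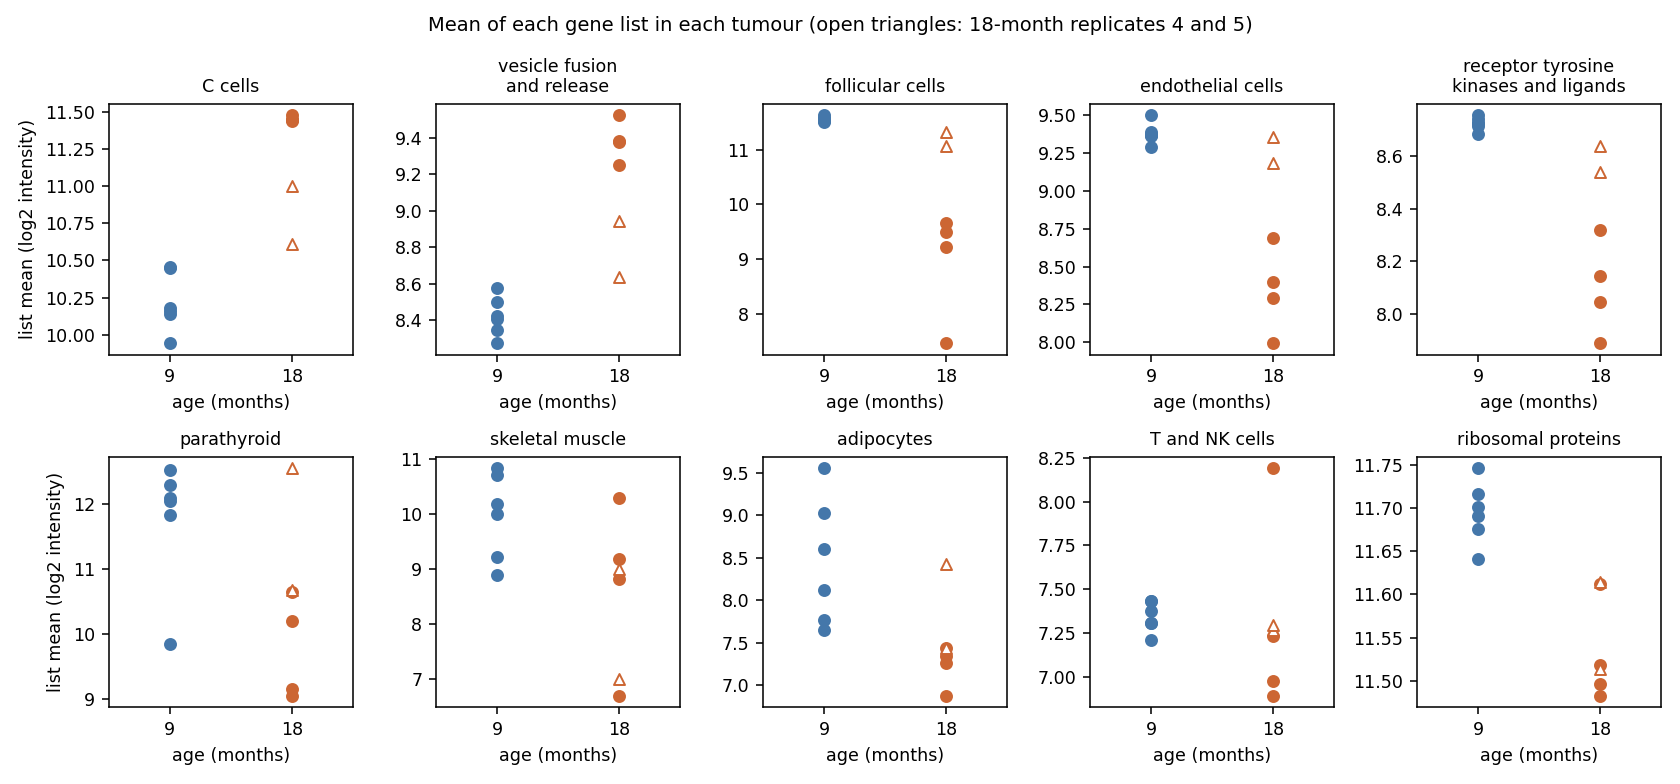
Mean log2 level of selected gene lists in each tumour, with 9-month and 18-month tumours as separate points. Vesicle fusion, receptor tyrosine kinase and ribosomal protein lists are shown beside cell type lists. The follicular mean lies between 11.50 and 11.62 in the younger tumours and falls to 7.47 in the lowest older tumour, while replicates 4 and 5 stay at 11.32 and 11.06; the C cell mean of every older tumour lies above those of the younger ones.

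Endothelial markers were lower in the older tumours: of 23 members tested, 1 rose, 19 fell and 3 did not pass, with a median difference of -0.72. When replicates 4 and 5 were left out, 1 rose and 21 fell. Sox17, a transcription factor of arterial endothelium, measured 8.33, 8.44 and 8.52 at 9 months and 7.37, 7.91 and 8.12 at 18 months and fell, with a difference of -0.57 (SE 0.11, limma adjusted p = 0.00271). Cdh5, VE-cadherin, fell by a difference of -0.78 (SE 0.16, limma adjusted p = 0.00343). Both were separate by age, as were Pecam1 (-1.09), Emcn (-1.67) and Tek (-1.26). The one member that rose was Prox1, which endocrine cells share. The list mean was 9.29 to 9.50 at 9 months and 7.99 to 9.35 at 18 months.

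Stromal lists shifted less. For fibroblasts and matrix, of 24 members tested, 2 rose, 6 fell and 16 did not pass, with a median difference of -0.14: Pdgfra, a receptor of mesenchymal cells, fell by a difference of -1.14 (SE 0.23, limma adjusted p = 0.00319) and Fbln1, fibulin 1, by -0.74 (SE 0.13, limma adjusted p = 0.00191), while Thy1, a surface glycoprotein that neurons carry too, rose by 0.68 (SE 0.10, limma adjusted p = 9.57e-04). The collagen genes Col1a1 and Col3a1 had 0.05 and -0.16 and did not pass. For pericytes and smooth muscle, 1 of 15 rose, Pdgfrb (0.43, SE 0.10, limma adjusted p = 0.00722), and 4 fell (list median 0.06), among them Mylk (-0.31, SE 0.09, limma adjusted p = 0.0152) and Lmod1 (-0.23, SE 0.08, limma adjusted p = 0.0319), genes of contraction. Acta2, smooth muscle actin, had 0.15 and did not pass. The call of Lmod1 was lost without any of 9-month replicates 2, 3, 5 and 6 or 18-month replicates 1, 2, 5 and 6 (limma adjusted p = 0.0514 to 0.0708), and the 4 falls became 1 or 2 in 9 of the 12 fits with 1 array left out: those without 9-month replicates 2 to 6 and 18-month replicates 1, 2, 5 and 6. Without replicates 4 and 5 together, fibroblast genes gave 3 rises and 9 falls, and pericyte genes 3 and 3.

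Immune lists were small and mostly did not move. For macrophages, of 19 members tested, 3 rose, 3 fell and 13 did not pass, with a median difference of 0.06. Both shares were below the 20.2% and 21.1% over all genes. Mertk, a receptor for apoptotic cells, measured 8.48, 8.63 and 8.72 at 9 months and 7.17, 7.47 and 7.88 at 18 months and fell, with a difference of -1.12 (SE 0.13, limma adjusted p = 4.63e-04), and Adgre1, an adhesion receptor of macrophages, fell by -0.69 (SE 0.14, limma adjusted p = 0.00345) as a signed difference, both without overlap. The complement genes moved the other way, C1qb rising by 0.67 (SE 0.21, limma adjusted p = 0.0234) with overlap. For T and NK cells no member of 14 passed in limma's test, 0 had an unadjusted p under 0.05, and Il2rb and Lck, the members with the smallest p, had -0.54 (SE 0.26, limma adjusted p = 0.12) and 0.27 (SE 0.15, limma adjusted p = 0.157). Pou2af1, a B cell coactivator, fell by a difference of -0.33 (SE 0.09, limma adjusted p = 0.0103) and was the only one of 6 B and plasma cell genes to pass. For mast cells, of 7 members tested, 0 rose, 4 fell and 3 did not pass, with a median difference of -0.24: Cpa3, the mast cell carboxypeptidase, fell without overlap (-1.33, SE 0.27, limma adjusted p = 0.00344), and the chymase Cma1 (-0.97, SE 0.24, limma adjusted p = 0.00768) and Gata2 (-0.38, SE 0.13, limma adjusted p = 0.0317) fell with overlap.

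Several immune genes stood near the threshold and crossed it when 1 array was left out. Over these fits the difference of C1qb stayed at 0.52 to 0.79 and that of Gata2 at -0.48 to -0.32. Il2rb passed without 18-month replicate 6, at -0.72 (limma adjusted p = 0.0293). C1qb was lost without any of 9-month replicates 3 and 5 or 18-month replicate 3 (limma adjusted p = 0.0509 to 0.0522), and Gata2 without any of 9-month replicates 1, 4, 5 and 6 or 18-month replicates 1, 2, 3 and 6 (limma adjusted p = 0.0542 to 0.071). The 4 mast cell falls became 2 without any of 9-month replicates 1, 4 and 5 or 18-month replicates 1, 2, 3 and 6. Without replicates 4 and 5 together, T and NK cell genes gave 1 fall and B and plasma cell genes 2, macrophage genes 6 rises and 2 falls and mast cell genes 5 falls.

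Tissues that adjoin the thyroid differed between single specimens. Of the parathyroid list, Pth, parathyroid hormone, ran from 10.67 to 14.26 (median 14.17) at 9 months and from 6.02 to 14.21 (median 11.89) at 18 months and Gcm2, its master regulator, from 6.29 to 11.25 (median 10.47) at 9 months and from 5.85 to 11.17 (median 6.59) at 18 months. The differences of -2.97 and -2.58 did not pass (limma adjusted p = 0.108 and 0.054), and the list mean of 18-month replicate 4, 12.55, was above that of all 6 younger tumours. Casr, which C cells also carry, was the only call among the 5 parathyroid genes (list median -1.83). With the 18-month replicates 4 and 5 left out, 1 rose and 3 fell, with a median of -2.48.

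Fat, muscle and nerve genes were the other lists of this kind. For adipocytes, of 12 members tested, 0 rose, 7 fell and 5 did not pass, with a median difference of -0.92, with Pparg, the adipogenic receptor (-1.07, SE 0.26, limma adjusted p = 0.00822), and the lipases Lipe (-0.87, SE 0.24, limma adjusted p = 0.0129) and Lpl (-0.90, SE 0.26, limma adjusted p = 0.0164) among the falls. The 7 falls became 4 without any of 9-month replicates 3, 4 and 5 or 18-month replicates 1, 2, 3 and 5, 11 without 9-month replicate 6 and 10 without replicates 4 and 5. For skeletal muscle, of 18 members tested, 0 rose, 8 fell and 10 did not pass, with a median difference of -1.73, led by Myh4, a fast myosin (-2.73, SE 0.80, limma adjusted p = 0.0181), Actn3 (-2.01, SE 0.64, limma adjusted p = 0.0256) and Pvalb (-2.02, SE 0.67, limma adjusted p = 0.0299). Without replicates 4 and 5, 2 muscle genes fell. With single arrays left out, 1 to 3 fell without any of 9-month replicates 2, 3, 4 and 6 or 18-month replicates 5 and 6, 5 without 18-month replicate 2 and 14 without 18-month replicate 3. Actn3 was lost without any of 9-month replicates 3, 4 and 6 (limma adjusted p = 0.0514 to 0.0547), and Pvalb without those and without 18-month replicate 5 or 6 (limma adjusted p = 0.0542 to 0.064). The muscle list mean ran 8.90 to 10.84 at 9 months and 6.70 to 10.30 at 18 months. For Schwann cells and nerve, of 10 members tested, 2 rose, 3 fell and 5 did not pass, with a median difference of -0.16. These few calls stand near the 20.2% and 21.1% over all genes. Mal (-1.78, SE 0.56, limma adjusted p = 0.0236) and Erbb3 (-1.31, SE 0.35, limma adjusted p = 0.0117), which epithelia express too, fell without overlap, and Sox10, the defining factor of the lineage, had -0.17 and did not pass. Mbp, myelin basic protein, rose by 0.22 (SE 0.06, limma adjusted p = 0.0172), but its probe sets disagreed in sign. Mal was lost without 18-month replicate 2 or 3 (limma adjusted p = 0.0516 in both). The fit without replicates 4 and 5 gave 2 rises and 4 falls in the nerve list. The part of these tissues in the differences of other genes was not tested.

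Epithelial junction genes fell more often than they rose: of 25 members tested, 5 rose, 12 fell and 8 did not pass, with a median difference of -0.25. With the 18-month replicates 4 and 5 left out, 5 rose and 16 fell. Among those that fell, Cdh16 (-2.39), Cldn8 (-2.07) and Grhl2 (-1.61) are epithelial genes, and Cdh16 is on the follicular list as well. Cdh1, E-cadherin, had -0.28 and did not pass. Esrp1, an epithelial splicing factor, measured 9.94, 10.06 and 10.11 at 9 months and 10.28, 10.39 and 10.52 at 18 months and rose by 0.35 (SE 0.05, limma adjusted p = 0.00101), and Spint1, a protease inhibitor, and Ank3, ankyrin G, rose by 0.63 (SE 0.10, limma adjusted p = 0.00141) and 0.72 (SE 0.12, limma adjusted p = 0.00159), all without overlap.

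For genes of invasion and matrix remodelling, of 30 members tested, 5 rose, 13 fell and 12 did not pass, with a median difference of -0.19, and without replicates 4 and 5, 7 rose and 15 fell. Lama3, a chain of the epithelial laminin, measured 9.12, 9.50 and 9.67 at 9 months and 6.64, 7.69 and 8.52 at 18 months and fell, with a difference of -1.79 (SE 0.34, limma adjusted p = 0.00263). The laminin receptors Itga6 and Itgb4 fell with it, by differences of -1.50 and -1.36. Serpine2, a protease inhibitor, rose by 0.70 (SE 0.14, limma adjusted p = 0.00306) without overlap and Mmp16, a membrane-bound metalloproteinase, by 1.27 (SE 0.26, limma adjusted p = 0.00349) with overlap. Cdh2, N-cadherin, rose by 1.71. Of the regulators of epithelial-mesenchymal transition, Zeb2 (-0.61) and Twist1 (-0.63) fell, and Snai1 (0.05), Snai2 (0.17), Zeb1 (-0.19) and the mesenchymal filament Vim (-0.18) did not pass.

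Receptor tyrosine kinases and their ligands were predominantly lower: of 45 members tested, 3 rose, 22 fell and 20 did not pass, with a median difference of -0.33. Leaving out the 18-month replicates 4 and 5, 6 rose and 26 fell. Egfr, the epidermal growth factor receptor, measured 7.28, 7.48 and 7.61 at 9 months and 6.63, 6.99 and 7.21 at 18 months and fell, with a difference of -0.50 (SE 0.10, limma adjusted p = 0.00371), without overlap. Fgfr2 (-1.90) and Igf1r (-1.29) fell as well. Alk, a receptor kinase of the developing nervous system, rose without overlap (1.93), ranging from 6.66 to 7.11 (median 6.73) at 9 months and from 7.13 to 10.36 (median 9.09) at 18 months.

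Among interferon-stimulated genes, of 27 members tested, 2 rose, 13 fell and 12 did not pass, with a median difference of -0.33. In the fit without replicates 4 and 5, 3 rose and 19 fell. Mx1, an antiviral GTPase, measured 8.93, 9.05 and 9.61 at 9 months and 7.35, 7.65 and 8.55 at 18 months and fell, with a difference of -1.34 (SE 0.21, limma adjusted p = 0.00126). Stat2, a transcription factor of the response, fell by a difference of -1.08 (SE 0.23, limma adjusted p = 0.00455) and Oasl2 by -0.51 (SE 0.11, limma adjusted p = 0.00503). The first and second of these were separate by age and Oasl2 overlapped. Rsad2 (0.89) and Oasl (0.41) rose.

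Of the Wnt, Notch and TGF-beta genes, 4 of 50 rose and 17 fell (median -0.21), and without replicates 4 and 5, 7 rose and 26 fell. Jag2, a Notch ligand, rose by 0.65 (SE 0.11, limma adjusted p = 0.00159) and Tgfb3 by 0.94 (SE 0.20, limma adjusted p = 0.00438). Wnt5a, a non-canonical Wnt, measured 8.14, 8.26 and 8.43 at 9 months and 6.70, 6.84 and 8.14 at 18 months and fell, with a difference of -1.10 (SE 0.23, limma adjusted p = 0.00409). All 3 were separate by age, with replicate 4 at 8.14 for Wnt5a. The inhibitor of differentiation Id4 (-1.80) and the signal transducers Smad9 (-1.46) and Smad3 (-1.05) fell, while the Notch target Hes1 had -0.88 and did not pass. The 17 falls became 11 without 9-month replicate 5 or 18-month replicate 3, 10 without 9-month replicate 6 and 9 without 18-month replicate 2.

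The follicular list mean and the first principal component both set replicates 4 and 5 nearest the younger tumours, and each gene was also fitted with that mean as a covariate. With it, 435 of the 11376 genes tested passed, 276 higher and 159 lower at 18 months, of which 397 had passed without it. The list counts under the covariate are to be read beside these totals. The 20.2% and 21.1% given earlier belong to the fit without it. Of the 118 genes named by the fixed rule that had passed, 30 still did. The C cell list kept a median of 0.79, with 6 of 21 members higher, voltage-gated channels 0.43 with 10 of 49, and vesicle fusion 0.36 with 8 higher and 2 lower of 40. The C cell and channel lists share members such as Cacna1c. No endothelial, interferon, junction or invasion gene passed as lower, although differences of many kept their sign, such as Lama3 at -0.89 (SE 0.33, limma adjusted p = 0.151), Mx1 at -0.77 (SE 0.21, limma adjusted p = 0.0628) and Cdh5 at -0.30 (SE 0.12, limma adjusted p = 0.183). The follicular list's own genes are in the covariate, so their values under it are no result.

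Single genes under the covariate included Pcsk1n at 1.51 (SE 0.21, limma adjusted p = 0.0109), Syt7 at 0.91 (SE 0.13, limma adjusted p = 0.0109), Abcc8 at 1.19 (SE 0.19, limma adjusted p = 0.0128) and Cacna1a at 1.08 (SE 0.19, limma adjusted p = 0.018). Among the genes of metabolism, Slc7a5 was at 0.79 (SE 0.20, limma adjusted p = 0.0499), Eno2 at 0.80 (SE 0.19, limma adjusted p = 0.0451) and Sdha at -0.38 (SE 0.08, limma adjusted p = 0.0295). Rps19 was at -0.41 (SE 0.08, limma adjusted p = 0.0279) and Mertk at -0.80 (SE 0.14, limma adjusted p = 0.0161). These genes passed in both fits. Of the 12 largest rises only Olfm1 passed with the covariate, at 1.08 (SE 0.19, limma adjusted p = 0.0184), and Cbln4 was at 1.13 (SE 0.58, limma adjusted p = 0.298). The covariate and age differ together between the groups, so the part of each in a difference was not tested.

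In some genes replicates 4 and 5 lay among the other older tumours. In 101 of the 1027 rises without overlap (9.83%) and 119 of the 1015 falls (11.7%), replicates 4 and 5 both lay inside the range of the other 4 older tumours. In 710 of the rises (69.1%) and 689 of the falls (67.9%) both lay between the younger tumours and those 4. The first set was read after the values were seen and is given as a description. Among its list members were Pcsk1n, Calca, Skp2, Spred1, Sel1l, Uqcrc2, Thy1, Ect2, Adgre1 and the ribosomal genes Rpl23 and Rps18. Outside the lists, those with the smallest p were Smim15 (-0.46), Ccdc92 (0.68), Slco4a1, an organic anion transporter (0.54), Lbh, a transcriptional cofactor (0.66), Hint3 (-0.50), Prrx1, a mesenchymal homeobox factor (-0.60), and Ece1, which processes endothelin (0.46). Slco4a1 ran from 7.23 to 7.52 (median 7.42) at 9 months and from 7.78 to 8.05 (median 7.94) at 18 months and Prrx1 from 10.43 to 10.71 (median 10.60) at 9 months and from 9.83 to 10.16 (median 9.98) at 18 months, with every older tumour beyond the younger ones.

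The homozygous tumours at 9 months, which share their age with the younger heterozygous group, are given side by side without a test. Pcsk1n lay at 11.12 to 12.18 (median 11.93) in them, Abcc8 at 9.27 to 11.27 (median 9.83) and Cbln4 at 6.11 to 9.97 (median 6.60). In these 3 genes their range began within or near that of the younger heterozygous tumours and reached into that of the older ones. The Cbln4 median lay within the younger heterozygous range of 6.52 to 6.90. Adgrg7 lay at 6.17 to 6.75, against 6.28 to 6.74 in the younger heterozygous tumours, and Duox1 lay at 9.31 to 10.60. Follicular list means ran 10.49 to 11.52 in the homozygous tumours and C cell list means 10.31 to 11.35.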

How the data were processed

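Values are the log2 levels deposited by the authors, 1 per probe set and array, for which the submitters' processing notes name RMA and Affymetrix Expression Console (version 1.3.0.187). The filter minimum was the 30th percentile of probe set means. RMA normalizes all arrays to 1 distribution, so shifts of total RNA are not seen. The number of arrays, 6 per age, limits the precision. Of 29214 probe sets, 15310 had 1 platform symbol (15279 matched RefSeq, 0 symbols changed), 323 several and 13581 none; only the first were used, giving 14506 genes, of which 527 had more than 1 probe set and 4 called genes had probe sets of opposite sign. limma 3.58.1 in R 4.3.3 (lmFit, eBayes, no covariate) was fitted to the 12 arrays and 11376 genes, and p-values were adjusted over all of them. The procedure was also run on simulated data in which each gene varied independently. Many genes here varied together, so that run does not show how often such data give false calls. No column was left unused.

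The comparison, the 36 gene lists (846 of 1052 entries tested) and the naming rule were chosen with earlier results of these data known. The rule named Cdkn1b, Calca, Calcb, Ret, Chga and Tg, the 12 largest rises and falls among called genes without overlap (symbols starting with LOC or RGD left out), and up to 3 called members of each list with the smallest p, or 2 where none was called, in all 124 genes. Other members were named after their values were seen. Alternatives covered the filter, normalization, probe sets per gene, variance model, replicate block, a follicular covariate and left-out arrays.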

Additional observations from a re-analysis of the deposited data

Results flagged for a closer look

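In 16 of 320 groups of 6 tumours, the highest or lowest value stood apart from the other 5 by more than 0.625 of the group's range. Chance flags about 1 in 20 groups. The causes were not tested.

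Among single genes at 18 months, Chga was high in replicate 4 at 13.15 (others 12.25 to 12.58), Tg low in replicate 1 at 11.08 (13.94 to 14.34), Nras low in replicate 3 at 9.70 (9.96 to 10.08), Prc1 high in replicate 1 at 8.68 (7.04 to 7.61), Fbln1 low in replicate 2 at 7.76 (8.34 to 8.59) and Lck high in replicate 6 at 8.07 (7.14 to 7.25). The mean of the parathyroid list, which holds Chga, was also highest in replicate 4 of this age, at 12.55. At 9 months, replicate 1 stood apart in Duox1 at 10.41 (10.64 to 10.77), Mccc2 at 9.90 (9.66 to 9.74) and Atf6 at 10.60 (10.31 to 10.41), replicate 3 in Rpl34 at 11.06 (11.20 to 11.24) and replicate 4 in Braf at 9.35 (9.56 to 9.67).

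The means of 5 lists stood apart in the same way. At 18 months these were glycolysis and hypoxia in replicate 1 at 10.72 (10.28 to 10.40), adipocytes in replicate 4 at 8.42 (6.88 to 7.44), and macrophages at 8.94 (8.16 to 8.40) and T and NK cells at 8.19 (6.89 to 7.30), both in replicate 6. At 9 months, the parathyroid mean of replicate 1 was 9.84 against 11.82 to 12.53 in the other 5 tumours.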

How the results depend on the processing

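The total of 4694 calls was 4622 with no filter, 4309 with the filter at the 50th percentile, 4525 after median centring, 4804 after quantile normalization, 4693 with the mean of probe sets, 5011 with all 18 arrays, 5740 with array weights and 4581 with weights per group. Leaving out each array gave 3812 to 5689 calls, 1899 to 2833 rises, 1894 to 2856 falls, 713 to 1209 calls at least 1 in size and 2059 to 3475 without overlap. Without replicates 4 and 5, chosen from these values as nearest the younger tumours, there were 6154 calls, 1475 at least 1 in size and 4822 without overlap. With the follicular mean as covariate there were 435 calls, 276 rises, 159 falls, 32 at least 1 in size and 365 without overlap. With the replicate number as a block there were 4607 calls, 4283 of them shared; deviations of same-numbered tumours correlated at -0.13 to 0.33, with 4 of 6 pairs over 0.1, and 3 of 6 tumours matched their own number best, a hint from the data; the labels pair no animals and not every pair was over 0.1, so the block stayed an alternative.

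Of the 124 named genes, 110 kept their direction and call under every alternative that tested them but the covariate, and 31 under that too; the filter at the 50th percentile tested 113. Calls of Lmod1, Gata2, Pvalb, Actn3, Mbp, C1qb, Prc1, Mal, Lpl or Oasl2 were lost under at least 1 other setting. Directions reversed for Ret, at -0.0035 with array weights, -0.0302 without replicates 4 and 5 and -0.0079 without 18-month replicate 5 (-0.0079 to 0.127 over the arrays left out), and under the covariate for Cdkn1b (-0.0369), Chga (0.16), Tg (0.69), Slc26a7 (0.19), Thrsp (0.11), Il2rb (0.11), Gata2 (0.0119) and Mal (0.12); Tg and Slc26a7 are part of the covariate, so their values under it are no result. The cause was not tested.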
